A study of Rattus norvegicus with 18 samples.

Results

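The arrays described here compared adrenal glands of rats labelled SHRSP with those labelled WKY, both at 6 weeks of age. WKY is the normotensive Wistar-Kyoto strain, SHR the spontaneously hypertensive rat bred from related Wistar stock, and SHRSP the stroke-prone substrain of SHR. The members were the 3 arrays whose labels read SHRSP and 6 weeks and the 3 that read WKY and 6 weeks, 6 of the 18 arrays of the series. The other 12 held SHR at 6 weeks and all 3 strains at 3 weeks, with 3 arrays in each group. No animal was treated, per the labels, and total RNA of the gland was measured on a one-colour Agilent array. Each sample is called a biological replicate in its label. The sources used here do not give the sex, the hour at which glands were taken, or whether a sample was 1 animal or a pool.

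The adrenal gland holds 2 endocrine organs in 1 capsule. The cortex makes steroid hormones from cholesterol under control of ACTH, which acts through its receptor and cyclic AMP, and of angiotensin II, which drives aldosterone synthesis in the outermost zone. The medulla is made of chromaffin cells, which turn tyrosine into adrenaline, store it with chromogranins in secretory granules and release it when the splanchnic nerve fires. Both organs raise blood pressure when overactive, and the SHR family is a standard model of inherited hypertension.

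All levels below are log2 signals relative to the 75th percentile of the same array, so that 0 is the signal of a bright probe and a step of 1 is a 2-fold change. A difference is the mean of the SHRSP arrays minus that of the WKY arrays with the standard error of the limma model, n = 3 and 3, and a called gene is one whose p in that model, adjusted by Benjamini and Hochberg's method, is under 0.05. A fold is given as a lower bound where the gene was well above background on no array of a group. The arrays of a group correlated across genes at 0.987 or more, and 77.8% to 84.8% of their spots were well above background. All 9 cortex markers and all 7 medulla markers were well above background on all 6 arrays, with median levels of 5.91 to 6.70 for the cortex and 2.18 to 3.26 for the medulla.

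The strain labels of the hypertensive groups did not run the same way at both ages, and this touches every result that joins the ages. An exchange of labels at 6 weeks would also touch the strain name in the comparisons at 6 weeks. Vegfb, which encodes a vascular growth factor, lay between 0.42 and 0.69 on the WKY arrays at 6 weeks and at -9.97, -9.67 and -9.18 on the arrays labelled SHRSP. At 3 weeks its mean was -9.61 on the arrays labelled SHR and 0.52 on those labelled SHRSP, and at 6 weeks it was 0.68 on the arrays labelled SHR. Serpinc1, which encodes antithrombin, had the reverse layout, with means of 4.11 in SHRSP and -5.53 in SHR at 6 weeks and of -6.35 in SHRSP and 2.12 in SHR at 3 weeks. Agtrap, a protein that binds the angiotensin receptor, followed Serpinc1, at 0.58 in SHRSP and -4.77 in SHR at 6 weeks and at -4.95 in SHRSP and -0.09 in SHR at 3 weeks. In all, 25 genes had the 6-week SHRSP and 3-week SHR arrays on one side and the 6-week SHR and 3-week SHRSP arrays on the other, with a gap of more than 1 between them. Only 2 genes, Hspa1b and Nr4a3, split the same 12 arrays by label with such a gap, and at a gap of more than 2 the numbers were 9 and 0. Of 30 genes that differed by at least 2 between the SHRSP and SHR labels at both ages, 24 had opposite signs and 6 the same sign. Serpinc1 and Agtrap were named after their values were seen. The labels are kept below, and every value belongs to the arrays labelled SHRSP. Whether labels were exchanged, and at which age, cannot be told apart from these arrays, so each comparison with 3 weeks is given against both hypertensive labels.

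**Figure D1:**
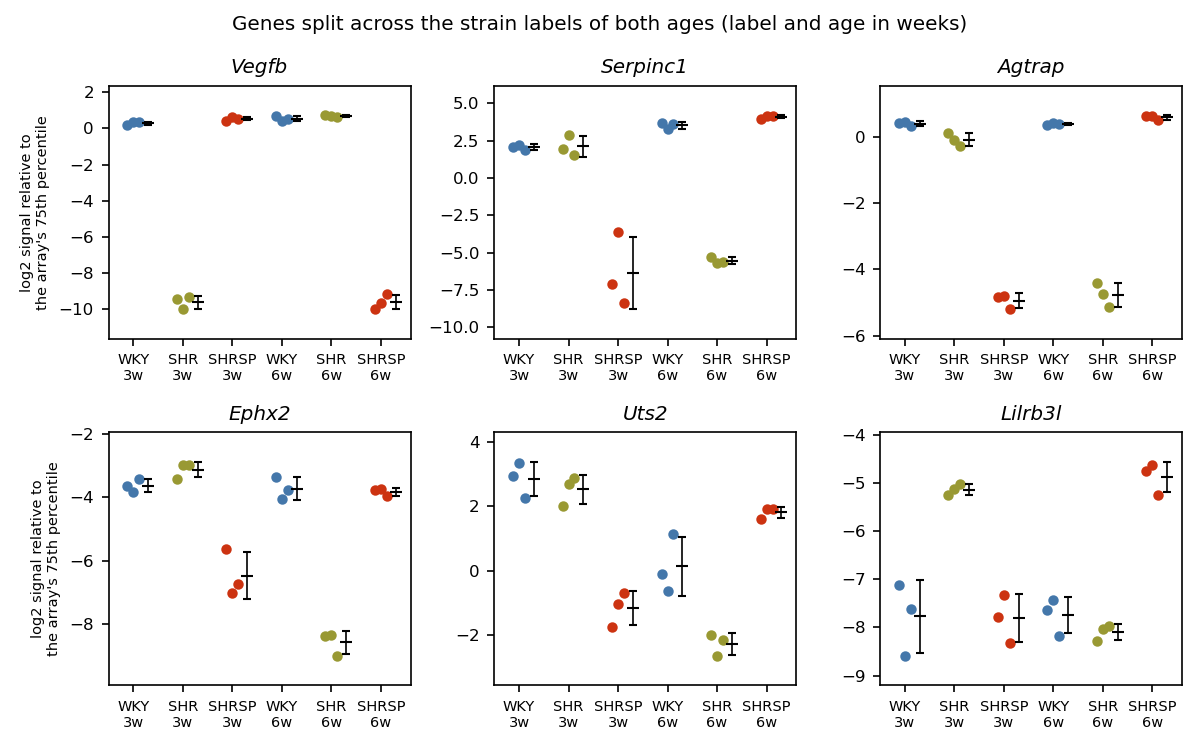
Levels of 6 genes (log2 signal relative to the array's 75th percentile) on all 18 arrays by label and age. Points are arrays and the bars beside them the mean ± SD of 3 arrays. For Vegfb and Lilrb3l the SHRSP arrays at 6 weeks sit with the SHR arrays at 3 weeks, and for Serpinc1, Agtrap, Ephx2 and Uts2 the SHR arrays at 6 weeks sit with the SHRSP arrays at 3 weeks.

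Between the 6-week groups 4991 of 20866 tested genes were called, which is 23.9%, with 2315 higher (11.1%) and 2676 lower (12.8%) in SHRSP. A change of at least 2-fold was called for 1065 genes (5.1%), or 573 with normexp background correction, and the median size of the called differences was 0.60. With no overlap between the 3 arrays of each group there were 6997 genes, 33.5% of those tested. The arrays were scanned on 3 days with 1 WKY and 1 SHRSP array on each day, and 4945 of the called genes (99.1%) differed in the same direction on all 3 days, on arrays that are part of the calls. With the 6 arrays of the comparison alone, and so with fewer degrees of freedom, 2374 genes were called. The balance of directions depended on the processing. Quantile normalization gave 2403 higher and 2454 lower, median scaling 2596 and 2084, and normexp background correction 2016 and 3086.

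Sequences are shown for 2 array probes and for the promoters of 3 genes described below. The first pair is the probes of Kynu and Ass1, enzymes of amino acid metabolism that stood among the largest rises. The probe of Kynu lies at chr3:24195524-24195583 on the plus strand of rn4, and that of Ass1 at chr3:10620727-10622079 on the plus strand of rn4, where its 60 bases match in separate pieces.
Kynu probe: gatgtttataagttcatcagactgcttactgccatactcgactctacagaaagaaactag
Ass1 probe: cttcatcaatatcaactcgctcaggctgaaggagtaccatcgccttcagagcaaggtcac

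Promoters are from RefSeq on GRCr8, the 250 bases before the transcription start, with a motif in capitals on either strand. That of Ciart, a clock repressor that rose, lies at chr2:186112247-186112496 on the minus strand and holds the E-box CACGTG, the site of clock activators, 3 times. That of Bmal1, a clock activator that fell, lies at chr1:176766078-176766327 on the plus strand and holds AGGTCA, the core of the element bound by ROR and REV-ERB receptors, 1 time. That of Nr4a1, an immediate early gene that fell, lies at chr7:134259888-134260137 on the plus strand and holds TGACG, the core of the cyclic AMP response element, 4 times.
Ciart promoter: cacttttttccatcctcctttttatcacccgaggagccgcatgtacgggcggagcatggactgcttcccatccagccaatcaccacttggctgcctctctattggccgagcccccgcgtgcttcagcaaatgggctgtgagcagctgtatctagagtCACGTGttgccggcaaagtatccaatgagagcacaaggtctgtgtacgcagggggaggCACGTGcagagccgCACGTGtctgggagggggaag
Bmal1 promoter: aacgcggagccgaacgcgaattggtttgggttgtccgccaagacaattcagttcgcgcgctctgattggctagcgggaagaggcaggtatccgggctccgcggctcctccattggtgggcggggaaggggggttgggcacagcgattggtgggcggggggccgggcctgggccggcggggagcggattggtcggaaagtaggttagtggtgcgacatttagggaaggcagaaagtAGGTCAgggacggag
Nr4a1 promoter: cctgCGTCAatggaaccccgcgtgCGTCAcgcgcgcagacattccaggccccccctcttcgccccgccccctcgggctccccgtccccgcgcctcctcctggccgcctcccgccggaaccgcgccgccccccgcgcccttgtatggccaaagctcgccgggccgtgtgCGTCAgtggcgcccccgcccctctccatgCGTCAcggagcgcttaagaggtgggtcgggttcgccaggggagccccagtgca

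Each motif was searched on both strands in 33469 promoters of that length. The E-box is in 5.59% of them and in 4 of the 18 clock genes that had a promoter in the table. It is in 5 of 23 immediate early genes and 4 of 15 steroidogenic regulators too. The ROR and REV-ERB core is in 14.1% of all promoters and in 2 of those 18. The cyclic AMP response core is in 18.2% of all promoters and in 14 of the 23 matched promoters of immediate early genes. A match is a run of letters in this window and no evidence of binding.

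The largest rises at 6 weeks were in genes that were dim or below background in WKY. Oxnad1, an oxidoreductase gene, was at -10.39, -8.71 and -9.88 in WKY, well above background on none of these arrays, and at -2.13, -1.33 and -0.58 in SHRSP, at least 86.1-fold higher (limma adjusted p = 5.16e-08). Vom2r53, a vomeronasal receptor gene, was at least 21.7-fold higher, with the SHRSP arrays spread from -5.46 to -1.81. Kynu, the kynureninase of tryptophan breakdown, was at -7.11, -7.56 and -8.18 in WKY and at -2.28, -2.36 and -2.13 in SHRSP, a rise of 5.36 ± 0.21 with 1 of 3 WKY arrays well above background. At 3 weeks Oxnad1, Vom2r53 and Kynu were well above background on 3 of 3 arrays under either hypertensive label and on 0 of 3 WKY arrays.

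Tmem163, a zinc-binding membrane protein, rose by 4.41 ± 0.29, and Ass1, the argininosuccinate synthase that rebuilds arginine from citrulline, by 3.66 ± 0.38. Ass1 was at -1.58, -2.08 and -1.07 in WKY and at 2.52, 1.99 and 1.73 in SHRSP, so that the groups lay far apart. Cbs, the cystathionine synthase that takes homocysteine toward cysteine, was at -5.15, -5.56 and -5.43 in WKY and at -1.32, -2.18 and -2.21 in SHRSP, a rise of 3.48 ± 0.32. Acox2, a peroxisomal oxidase of bile acid synthesis, was at least 3.35-fold higher and Spaca1, a sperm acrosome gene, at least 2.07-fold higher. The Acox2 call was lost with normexp background correction (0.50). Nat8f5 rose by 3.46 ± 0.31 and Shc3, an adaptor of receptor tyrosine kinases, by 3.12 ± 0.37. Lilrb3l, a leukocyte immunoglobulin-like receptor gene, rose by 2.86 ± 0.33.

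A further set of large rises was smaller at 3 weeks under either label. P2ry2, a receptor for extracellular ATP and UTP, was at -4.64, -4.81 and -4.77 in WKY and at -1.10, -1.38 and -1.53 in SHRSP at 6 weeks. This rise of 3.4 ± 0.24 exceeded the 3-week difference by 2.45 with the SHRSP label and by 2.43 with the SHR label (adjusted p = 0.000591 and 0.000469). Spp1, which encodes the matrix protein osteopontin, was at 2.83, 2.65 and 2.57 in WKY and at 5.81, 6.39 and 5.78 in SHRSP. It rose by 3.31 ± 0.16, against differences at 3 weeks of 1.0 and 1.04. Nid1, a basement membrane glycoprotein, rose by 2.88 ± 0.17, from levels of -1.84 to -1.48 in WKY to levels of 1.03 to 1.46, and exceeded its 3-week differences by 1.97 and 2.13.

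Among the largest falls, Vegfb was at least 368-fold lower (adjusted p = 1.05e-13) and lay below background on all 3 SHRSP arrays. It is measured by 1 probe at chromosome 1, 209657830 to 209657889 on rn4. Sbk2, a kinase gene, was at -3.38, -3.37 and -3.30 in WKY and at -10.26, -9.48 and -8.63 in SHRSP on its brighter probe, where no SHRSP array was well above background, and so was at least 24.8-fold lower on that probe. The second Sbk2 probe differed by -1.32 ± 0.35 and was well above background on 1 SHRSP array, so the size of the fall depends on the probe. Prss35, a gene of the serine protease family, was at -1.03, -0.34 and -0.56 in WKY and at -6.37, -6.0 and -6.36 in SHRSP. It fell by 5.60 on the log2 scale, and its differences at 3 weeks were -4.29 (SHRSP) and -3.04 (SHR).

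Scn10a, a voltage-gated sodium channel best known from sensory neurons, was at -2.24, -1.87 and -2.11 in WKY and at -7.23, -7.24 and -6.92 in SHRSP, a difference of -5.06 ± 0.17. Apln, the gene of the vasodilator peptide apelin, was at -0.64, 0.63 and -0.42 in WKY and at -4.27, -4.69 and -3.90 in SHRSP, a difference of -4.14 ± 0.27. Gnrhr, the gonadotropin-releasing hormone receptor, was at 1.5, 1.65 and 1.72 in WKY and at -2.44, -2.07 and -2.33 in SHRSP. Its fall of 3.90 ± 0.14 on the log2 scale was larger than the 3-week differences of -1.63 and -1.58. On rn4 the Gnrhr probe lies at chr14:23656426-23656485 and the Apln probe at chrX:134387384-134387443.

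Akr1d1, the steroid 5-beta-reductase, was at -4.79 ± 0.85 and Fam154a at -4.20 ± 0.34, the latter with -4.15 ± 0.49 on its second probe. Hsd17b13, a lipid droplet enzyme, was at -3.63 ± 0.77 with 1 SHRSP array above background, and Obscnl, an obscurin-like gene, was at least 3.77-fold lower. Slc25a25, a mitochondrial carrier for ATP-Mg and phosphate, was at 2.99, 4.44 and 4.64 in WKY and at 0.36, 0.61 and 0.36 in SHRSP. The WKY array of replicate 1 was the low one in Slc25a25. It was the low one too in Hspa1b, an inducible heat shock gene (-0.46, 2.02 and 2.0 in WKY, -2.91, -2.80 and -3.07 in SHRSP), in Dyrk3 (-3.80, -0.55 and 0.13 against -5.09, -5.05 and -5.22) and in the cadherin gene Cdh1 (-3.75, -0.85 and -1.88 against -5.57, -6.05 and -5.91). On the first scan day, which held that WKY array, these differences were -2.45, -1.30 and -1.82, against -4.80 to -5.09, -4.66 to -5.19 and -4.17 to -5.07 on the other days.

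**Figure D2:**
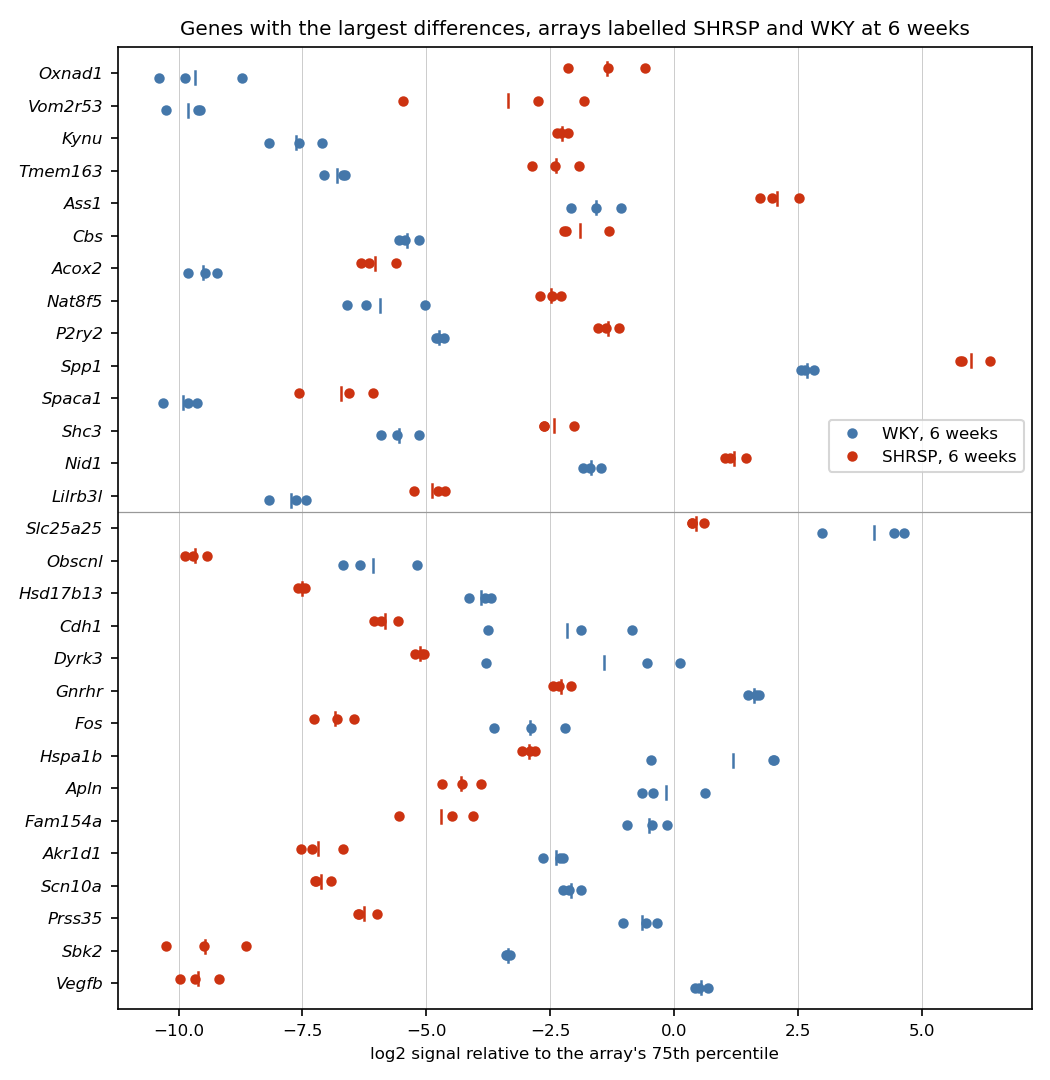
Levels of 14 of the 15 genes with the largest rises and of the 15 with the largest falls, on the 3 WKY arrays (blue) and the 3 SHRSP arrays (red) at 6 weeks. Points are arrays, vertical ticks are means, and the horizontal line parts rises from falls. No gene shown has overlapping groups, and WKY levels are widely spread in Hspa1b, Dyrk3 and Cdh1.

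Granule genes of the chromaffin cell and the enzymes Pnmt and Th were higher in SHRSP. In the other chromaffin lists the share called ran from 12.5% to 42.9%, against 23.9% of all genes. Pnmt, which methylates noradrenaline to adrenaline, was at 1.77, 2.0 and 2.12 in WKY and at 3.26, 2.81 and 2.89 in SHRSP, a rise of 1.02 ± 0.12 or 2.03-fold (adjusted p = 2.58e-05). Th, the tyrosine hydroxylase that sets the rate of catecholamine synthesis, was at 3.29, 3.48 and 3.27 in WKY and at 4.53, 4.09 and 4.26 in SHRSP, a rise of 0.95 ± 0.13. The groups did not overlap in either gene, and replicate 1 of SHRSP was the highest array in both. Ddc, the decarboxylase between Th and Dbh, differed by -0.11 ± 0.08 and was not called (adjusted p = 0.405). Dbh, which forms noradrenaline, was at 2.18, 2.22 and 2.18 in WKY and at 2.98, 2.42 and 2.46 in SHRSP. Its difference of 0.43 ± 0.17 was not called (adjusted p = 0.0956), although it was with median scaling (adjusted p = 0.0494) and with normexp background correction (0.0411), and it was 0.25 without replicate 1 of SHRSP. In a bulk gland, more cells of a type and more RNA per cell cannot be told apart.

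Of the 9 enzymes and cofactor genes of catecholamine synthesis, 3 were called higher and 0 lower (33.3% called, against 23.9% of all genes). Their median difference was 0.41, against -0.01 over all genes tested. The third called gene was Pts, an enzyme of tetrahydrobiopterin synthesis, at 0.41 ± 0.13, a call lost without replicate 2 of WKY (0.27) or replicate 1 or 2 of SHRSP. Of the 14 genes of storage and the secretory granule, 10 were higher and 0 lower (71.4% called), with a median of 0.69. The secretogranins and chromogranins that load the granule led these. Chgb was at 5.15, 5.14 and 5.24 in WKY and at 6.22, 5.97 and 5.81 in SHRSP, a rise of 0.82 ± 0.10, and Scg2 rose by 0.84 ± 0.09. Cpe, the carboxypeptidase that trims prohormones, was at -0.53, -0.43 and -0.50 in WKY and at 0.50, 0.45 and 0.40 in SHRSP, a tight rise of 0.94 ± 0.07. Cyb561, the cytochrome that keeps granule ascorbate reduced, rose by 0.70 ± 0.09, Scg5, a chaperone of prohormone convertase, by 0.68 ± 0.12, and Slc18a1, the vesicular monoamine transporter, by 0.50 ± 0.10. The Chga rise of 0.67 ± 0.19 was called with all arrays (adjusted p = 0.0181) and lost without replicate 1 or 3 of either group.

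The machinery that releases granules showed little of this, with 2 of 16 exocytosis genes higher (Rab3c at 0.61 ± 0.11 and Sv2a at 0.44 ± 0.13), 0 lower and a median of 0.00. Sv2a was not called with normexp (0.21) or without replicate 1 or 3 of WKY or replicate 1 of SHRSP. Of 11 neuropeptide genes 3 were higher and 0 lower (27.3% called, near the 23.9% of all genes). Vip was at -5.45, -4.90 and -5.21 in WKY and at -3.63, -4.07 and -3.92 in SHRSP, a rise of 1.32 ± 0.21. Adm, the gene of the vasodilator adrenomedullin, rose by 1.40 ± 0.19 and Pdyn, the dynorphin precursor, by 0.55 ± 0.09.

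Of 12 transcription factors of the sympathoadrenal lineage, 4 were higher and 0 lower (33.3% called, against 23.9% of all genes). Mycn, a proto-oncogene of that lineage, was at -2.80, -3.03 and -2.78 in WKY and at -0.77, -1.09 and -1.22 in SHRSP, a rise of 1.85 ± 0.17 or 3.59-fold. Hand2 rose by 1.25 ± 0.15, Gata3 by 1.03 ± 0.12 and Gata2 by 0.86 ± 0.21. Of 15 receptors of chromaffin cells, 2 were higher and 1 lower, and the 20% called is below the share of all genes. Gfra1, the GDNF co-receptor, was at -4.84, -4.50 and -4.57 in WKY and at -5.86, -6.90 and -6.55 in SHRSP, a difference of -1.80 ± 0.29. Adra2a, the alpha-2A adrenoceptor that restrains release, rose by 1.13 ± 0.25 with 1 of 3 WKY arrays above background. Chrna7, a nicotinic receptor subunit, rose by 0.62 ± 0.20, a call lost with normexp (0.11), with slide as a block (0.54) and without replicate 1 of WKY or replicate 1 or 2 of SHRSP.

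Among 7 genes of catecholamine uptake and breakdown, 1 was higher and 2 lower (42.9% called, against 23.9% of all genes). The extraneuronal transporter Slc22a3 was at -1.09 ± 0.31. The Slc22a3 call was lost without replicate 1 of WKY or replicate 1 or 2 of SHRSP. On the 3 scan days the median of the granule genes was 0.87, 0.63 and 0.56. Of the 7 medulla markers, which share genes with these lists, 5 were higher and 0 lower (71.4% called) with a median of 0.67. Of 14 Schwann cell and nerve markers 2 were higher and 0 lower (14.3%, below the share of all genes), among them the neurofilament Nefh at 1.80 ± 0.14. Their part in the results on chromaffin genes was not tested.

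At 3 weeks the granule list had a median difference of 0.45 under the SHRSP label and 0.39 under the SHR label. Th was at 0.71 and 0.33 and Pnmt at 0.73 and 0.13 in the same order. All of these lay below the 6-week values under either label, and the size of the change depended on the label. For Th the change with age was 0.24 with the SHRSP label (limma adjusted p = 0.484) and 0.62 with the SHR label (0.0436). The change of the Pnmt difference with age was 0.30 with the SHRSP label (adjusted p = 0.315) and 0.89 with the SHR label (0.0039). Cpe changed under both, by 0.75 and 0.74 (adjusted p = 0.000506 and 0.000431). Against the arrays labelled SHR at 6 weeks, Th differed by 0.08 and Pnmt by 0.06, neither called. In that comparison 0 of the 14 granule genes were called, against 14.9% of all genes.

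In the steroid pathway some steps were called higher and others were not called. Of 25 genes of steroid hormone synthesis, 8 were higher and 4 lower (48% called, against 23.9% of all genes). Their median difference was -0.04. Star, which carries cholesterol into mitochondria, was at 5.52, 5.51 and 5.75 in WKY and at 6.18, 6.16 and 6.14 in SHRSP, a rise of 0.57 ± 0.08, with 0.41 on a second probe that was not called (limma adjusted p = 0.0593). Cyp11a1, Hsd3b1 and Cyp21a1, the enzymes that turn cholesterol into deoxycorticosterone, differed by -0.11 ± 0.10, -0.15 ± 0.07 and -0.15 ± 0.08 and were not called in limma (adjusted p = 0.511, 0.162 and 0.246). Hsd3b1 was called without replicate 2 of SHRSP, at -0.22. Cyp11b1, which makes corticosterone, rose by 0.58 ± 0.08, from levels of 5.91 to 6.21 to levels of 6.56 to 6.70, and its second probe was at 0.49 and not called (limma adjusted p = 0.184).

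Cyp11b2, the aldosterone synthase, was at 2.70, 2.83 and 2.74 in WKY and at 3.62, 3.36 and 3.93 in SHRSP, a rise of 0.88 ± 0.13 or 1.84-fold (adjusted p = 0.000156). Cyp11b1 and Cyp11b2 are near-identical paralogs, and how far their probes share signal was not tested. Hsd3b2 was at -0.46, -0.82 and -0.85 in WKY and at 0.82, 0.33 and 0.43 in SHRSP, a rise of 1.24 ± 0.18. Por, the reductase that feeds electrons to microsomal P450 enzymes, rose by 1.12 ± 0.14. Akr1c3, a hydroxysteroid dehydrogenase, was at least 1.81-fold lower, with a second probe at -0.19 ± 0.48. The call was lost with normexp background correction (-0.40). Akr1c3 was named after its values were seen.

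**Figure D3:**
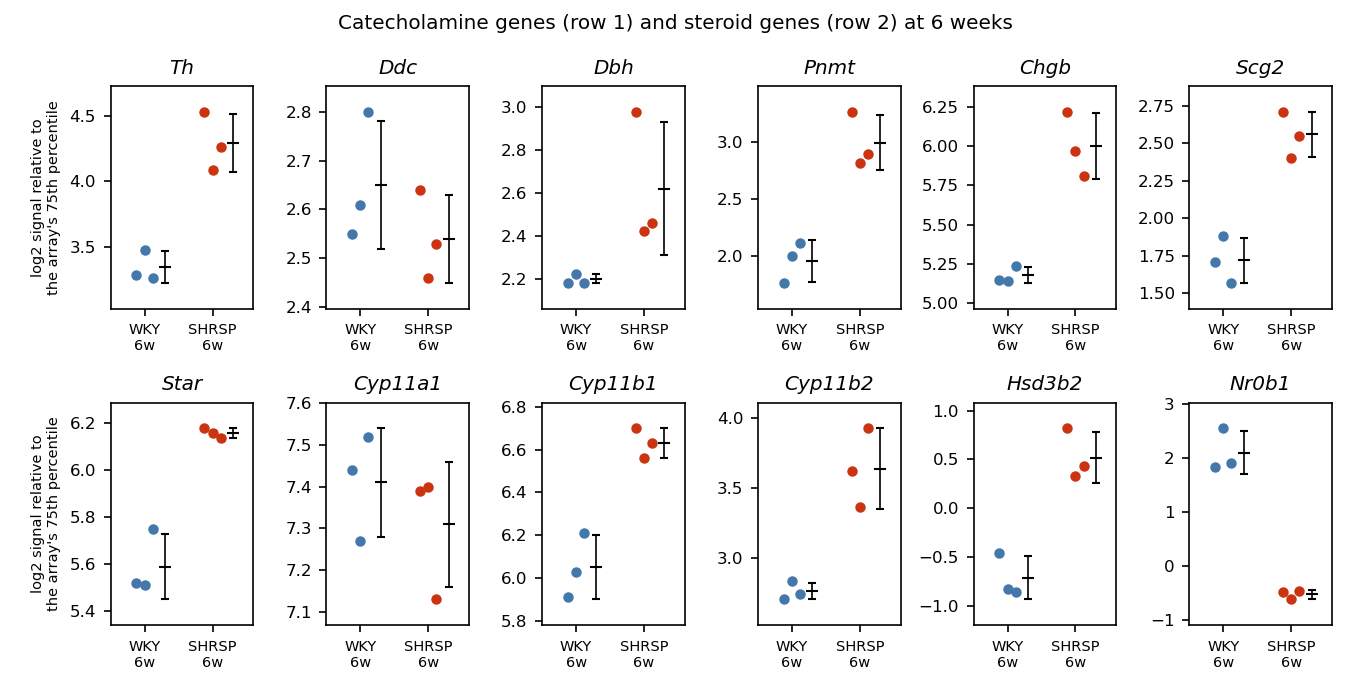
Levels of 6 catecholamine and granule genes (upper row) and 6 steroid genes (lower row) on the 3 WKY and 3 SHRSP arrays at 6 weeks. Each panel has its own scale, points are arrays, and bars are mean ± SD of 3 arrays. Th, Pnmt, Chgb, Scg2, Star, Cyp11b1, Cyp11b2 and Hsd3b2 lie higher in SHRSP, Nr0b1 lower, and the groups overlap in Ddc and Cyp11a1.

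Of 24 genes of the zona glomerulosa, where aldosterone is made, 10 were higher and 1 lower (45.8% called, against 23.9% of all genes). Their median was 0.32, or 0.20 with normexp background correction, and 0.53, 0.08 and 0.3 on the 3 scan days. Besides Cyp11b2 and Hsd3b2 the higher ones included Cacna1c, an L-type calcium channel (0.77 ± 0.12, and 0.44 ± 0.17 on a second probe that was not called). The channel gene Cacna1d was the member that fell, from levels of -5.25 to -5.03 in WKY to levels of -6.0 to -5.68 in SHRSP, a difference of -0.67 ± 0.10. Agtr1a, the angiotensin II receptor, was at 0.34 ± 0.10, a call lost without replicate 2 or 3 of WKY or replicate 1 (0.21) or 3 of SHRSP, and Agtr1b was at 0.22 ± 0.19 and not called. Of 29 Wnt and hedgehog genes, 7 were higher and 1 lower (27.6% called, near the 23.9% of all genes). Among them were Ptch1, the hedgehog receptor (0.90 ± 0.19), Hhip, a hedgehog-binding protein (0.79 ± 0.15), Dkk3, a secreted Dickkopf-family protein (0.79 ± 0.12), and Rspo1, an enhancer of Wnt signalling (0.69 ± 0.16, not called with normexp at 0.21).

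The repressors Nr0b1 and Nr0b2 were lower. Nr0b1, also called DAX1, a brake on SF-1, was at 1.83, 2.56 and 1.91 in WKY and at -0.49, -0.62 and -0.47 in SHRSP, a difference of -2.62 ± 0.21 or 6.16-fold (adjusted p = 7.23e-07). Nr0b2, also called SHP, a related corepressor, was at 3.89, 3.71 and 3.27 in WKY and at 1.48, 1.84 and 1.34 in SHRSP, a difference of -2.07 ± 0.15. Cited2, a coactivator needed for adrenal development, rose by 2.08 ± 0.29. Of the 20 genes on the list of steroidogenic regulators, 3 were higher and 6 lower (45% called, against 23.9% of all genes). Those lower included the NR4A receptors described with the immediate early genes. They also included Sf3b1 (-0.29 ± 0.06), which encodes a splicing factor and is no steroidogenic regulator.

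Of 24 genes of ACTH and cyclic AMP signalling, 4 were higher and 5 lower (37.5% called, against 23.9% of all genes). Mc2r, the ACTH receptor, was at 0.78, 0.31 and 0.71 in WKY and at 1.27, 1.42 and 1.2 in SHRSP, a rise of 0.70 ± 0.14. Pde8b, a phosphodiesterase that lowers cyclic AMP in the cortex, was at -1.52 ± 0.12, and Pde10a, which degrades both cyclic nucleotides, was at 1.87 ± 0.16. The 2 phosphodiesterases thus moved in opposite directions with no overlap between groups. Prkaca, the catalytic subunit of protein kinase A, was lower by a small and tight difference of -0.55 ± 0.07, on both of its probes.

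Cholesterol genes moved in both directions. Of 34 genes of cholesterol synthesis and uptake 7 were higher and 11 lower (52.9% called, against 23.9% of all genes). Their median was -0.12. Insig1, the sterol-induced brake on SREBP, was at 1.48, 1.61 and 2.34 in WKY and at 0.15, -0.02 and -0.06 in SHRSP, a difference of -1.79 ± 0.21. Hmgcs1, which starts the mevalonate pathway, was at 3.65, 3.80 and 4.21 in WKY and at 1.90, 2.12 and 2.08 in SHRSP, a difference of -1.85 ± 0.19. Msmo1, a sterol oxidase, was at -1.12 ± 0.15. Scarb1, the HDL receptor that supplies rat adrenal cells with cholesterol esters, was at 4.51, 5.11 and 5.20 in WKY and at 6.12, 5.90 and 6.34 in SHRSP, a rise of 1.18 ± 0.17. Scarb1 was named after its values were seen. The synthesis enzymes Cyp51 (0.53) and Dhcr7 (0.60) also rose. Acat2, the cytosolic thiolase, rose by 1.72 ± 0.20 on its brighter probe, and its other probe, far dimmer, was at -0.50 ± 0.19.

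The Insig1 difference changed with age under either label. Its 3-week differences from WKY were 1.38 (SHRSP) and 1.54 (SHR), so that the difference changed by -3.17 or -3.33 (adjusted p = 4.82e-05 and 2.92e-05). Hmgcs1 changed by -1.82 and -2.13. Against the arrays labelled SHR at 6 weeks, 0 of these 34 genes were higher and 10 lower, with Insig1 at -2.28 and Hmgcs1 at -1.54. Of all genes 6.73% were higher and 8.2% lower in that comparison. The list median was -0.15, against -0.107 over all genes, and the latter was -0.0054 with quantile normalization.

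Immediate early genes, which respond within minutes to stimuli such as ACTH, splanchnic nerve activity or handling, were lower more often than higher. Of 32 such genes 3 were called higher and 14 lower (53.1% called, against 23.9% of all genes). The rest were not called, and the list median was -0.87. The median was -0.27, -0.74 and -1.23 on the 3 scan days. Fos, a subunit of AP-1, was at -3.64, -2.19 and -2.89 in WKY and at -6.45, -6.80 and -7.26 in SHRSP, a difference of -3.93 ± 0.47. Nr4a1, an orphan receptor induced by ACTH, was at 2.79, 4.89 and 5.12 in WKY and at 0.78, 0.78 and 0.68 in SHRSP, a difference of -3.52 ± 0.68. Nr4a2 was at -1.86 ± 0.45. Nr4a3 was at -3.42, 1.11 and 1.46 in WKY and at -3.20, -3.71 and -3.49 in SHRSP, so that replicate 1 of WKY lay within the SHRSP range. The Nr4a3 call (-3.18 ± 0.87) was lost without replicate 2 (-2.49) or 3 (-2.31) of WKY. A second Nr4a3 probe was at -1.14, 1.41 and -0.14 in WKY and at -4.95, -5.20 and -4.91 in SHRSP, with no overlap and a difference of -5.06 ± 0.58 (limma adjusted p = 2.07e-05). Nr4a2 and Nr4a3 were named after their values were seen.

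Other members were steady across the WKY arrays. Arc, an activity-induced gene, was at -2.34, -2.39 and -2.03 in WKY and at -4.30, -4.54 and -4.63 in SHRSP. Dusp1, a MAP kinase phosphatase, was at -2.74, -2.91 and -2.92 in WKY and at -4.73, -4.76 and -5.09 in SHRSP. Both fell with no overlap, by 2.23 and 2.0 on the log2 scale. Jund, the AP-1 subunit, was at -0.71 ± 0.08, whereas Gadd45b, a stress-response gene, rose by 1.60 ± 0.19. At 3 weeks the list medians were 0.15 (SHRSP) and 0.60 (SHR), above 0 under both labels.

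Of 20 glucocorticoid-responsive genes 1 was higher and 6 lower (35% called, against 23.9% of all genes), with a median of -0.19. Ddit4, an mTOR inhibitor, was at 1.64, 2.33 and 2.07 in WKY and at -0.81, -0.02 and -0.76 in SHRSP, a difference of -2.54 ± 0.40. Cebpd, a transcription factor, was at -0.98 ± 0.17. Glul, glutamine synthetase, was the member that rose, by 0.93 ± 0.21.

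Of 21 genes of the circadian clock 9 were higher and 5 lower (66.7% called, against 23.9% of all genes). Bmal1, the activator at the core of the clock, was at 0.42, 0.23 and -0.03 in WKY and at -2.29, -2.24 and -2.67 in SHRSP, a difference of -2.61 ± 0.16 or 6.1-fold (adjusted p = 1.05e-07). Its partner Npas2 was at 0.99, 1.08 and 0.46 in WKY and at -2.44, -2.37 and -2.67 in SHRSP, a difference of -3.34 ± 0.14. A second Bmal1 probe gave -2.10 ± 0.20 and a second, dimmer Npas2 probe -0.50 ± 0.21. Rora, which activates Bmal1, was at -0.84 ± 0.11.

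Several repressors and output genes of the clock were higher, whereas the repressor Nr1d1 was lower (-0.74) and its paralog Nr1d2 higher (0.83). Cry1 was at -2.15, -2.58 and -2.46 in WKY and at 0.26, -0.27 and 0.08 in SHRSP, a rise of 2.42 ± 0.16. Ciart, whose promoter is shown above, was at -7.50, -7.18 and -5.72 in WKY and at -4.61, -4.20 and -4.23 in SHRSP, a rise of 2.45 ± 0.39. Per2 rose by 1.74 ± 0.24 and the output factors Tef by 1.68 ± 0.15 and Dbp by 1.40 ± 0.25, Dbp on all 3 of its probes. Replicate 3 of WKY was the WKY array nearest to SHRSP in Ciart, Per2 (-2.26), Dbp (3.95) and Tef (-0.47). Per2, Ciart and Dbp were named after their values were seen. Clock transcripts swing over the day, and the part of the hour of collection in these differences was not tested.

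At 3 weeks Npas2 differed by -2.84 under the SHRSP label and by -0.65 under the SHR label, and Cry1 by 1.74 and 0.19. The change of the Bmal1 difference with age was -2.02 and -1.89 (adjusted p = 0.000171 and 0.000231). Against SHR at 6 weeks, Bmal1 was at -0.84, Npas2 at -0.78, Cry1 at 0.82 and Tef at 0.89, all called in limma (adjusted p = 0.00317, 0.00156, 0.00318 and 0.00125).

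**Figure D4:**
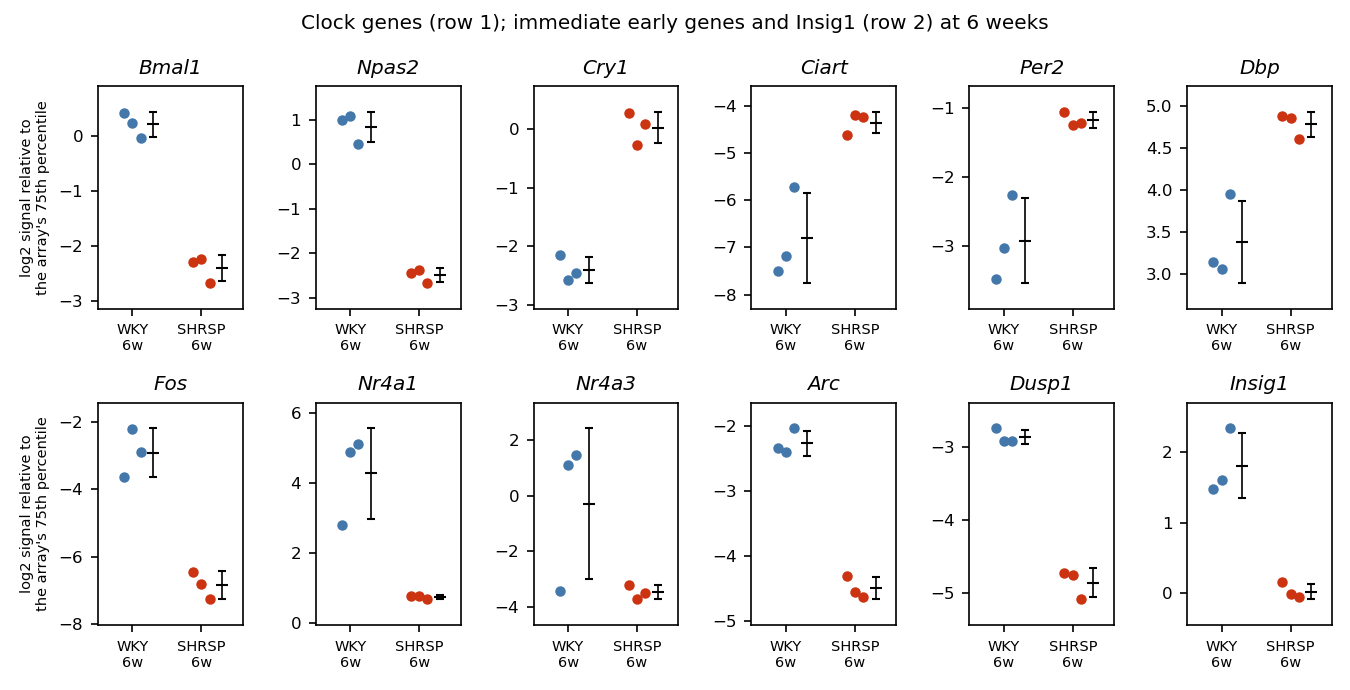
Levels of 6 clock genes (upper row) and of 5 immediate early genes and Insig1 (lower row) on the 3 WKY and 3 SHRSP arrays at 6 weeks. Each panel has its own scale, points are arrays, and bars are mean ± SD of 3 arrays. Bmal1 and Npas2 lie lower and Cry1, Ciart, Per2 and Dbp higher in SHRSP, while 1 WKY array lies among the SHRSP arrays for the Nr4a3 probe shown.

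Of 46 cell cycle genes 19 were called lower and 3 higher (47.8% called), and the rest were not called. Of all genes 12.8% were lower and 11.1% higher. The list median was -0.49, and it was -0.49, -0.40 and -0.42 on the 3 scan days. Aurka, a mitotic kinase, was at 1.03, 1.14 and 1.26 in WKY and at -0.68, -0.14 and -0.54 in SHRSP, a difference of -1.60 ± 0.12. The other members that fell were smaller differences, from Cdkn3 at -1.34 to Cdk6 at -0.40. Mcm7, a subunit of the replication helicase, rose instead, from levels of -0.16 to -0.03 to levels of 0.90 to 1.04, and so did the D-type cyclin Ccnd2 (0.82 ± 0.13) and Ccnd3 (0.47). Mcm7 stood as high over WKY at 3 weeks, at 1.42 and 1.12, whereas the list median there was 0.20 (SHRSP) and -0.17 (SHR). Against the arrays labelled SHR at 6 weeks, 6 of the 46 were higher and 2 lower, where 6.73% and 8.2% of all genes were. The list median in that comparison was 0.30, against -0.107 over all genes.

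Of 36 growth factor and imprinted genes 9 were higher and 0 lower, and the 25% called is near the share of all genes. Tgfb2 was at -5.83, -5.63 and -5.92 in WKY and at -4.18, -4.48 and -4.39 in SHRSP, a rise of 1.45 ± 0.16, with 0.43 ± 0.33 on a second probe that was not called. Tgfb3 rose by 0.93 ± 0.12. Cdkn1c, an imprinted inhibitor of cell division, rose by 1.11 ± 0.15 on the brighter probe and by 1.18 ± 0.18 on the other. Dlk1, an imprinted Notch-like ligand found in the outer cortex, rose by 0.74 ± 0.11.

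Vasoactive genes were called lower more often than higher, 7 against 2 of 27, where 12.8% and 11.1% of all genes were. Their median difference was -0.03, near the -0.01 over all genes. Nppc, the C-type natriuretic peptide gene, was at least 2.85-fold lower, from levels of -6.96 to -6.14 in WKY to below background on all SHRSP arrays. Avp, the vasopressin gene, was at -3.62, -3.47 and -3.31 in WKY and at -4.78, -4.61 and -4.32 in SHRSP, a difference of -1.10 ± 0.11, and its receptor gene Avpr1a was at -1.36 ± 0.22. Apln fell as described, and Adm rose. Of 22 VEGF and angiogenesis genes 5 were higher and 4 lower (40.9% called, against 23.9% of all genes). Apart from Vegfb and Apln, which is on both lists, the called differences ran from -0.44 in Vegfc to 0.92 in Pgf, the placental growth factor gene.

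Of 20 genes of arginine and nitric oxide metabolism, 7 were higher and 3 lower (50% called, against 23.9% of all genes). Besides Ass1, Arg2, the mitochondrial arginase, was at least 1.55-fold higher, with 2 of 3 SHRSP arrays above background, and its call was lost with normexp (0.12). Ddah1, which clears the nitric oxide synthase inhibitor dimethylarginine, was at 0.72, 0.32 and 0.62 in WKY and at 1.80, 1.64 and 1.48 in SHRSP, a rise of 1.08 ± 0.25, with 0.24 ± 0.15 on its dimmer probe. Pde5a, the cyclic GMP phosphodiesterase, was at -0.63 ± 0.11. Of 10 kynurenine pathway genes 4 were higher and 1 lower (50% called). Beside Kynu the rises were below 1, with Afmid, the formamidase ahead of it, at 0.84 ± 0.13 and Kyat1, an aminotransferase, at 0.69 ± 0.15.

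Among 16 genes linked to these strains in the literature, 4 were higher and 3 lower (43.8% called, against 23.9% of all genes). Folr1, a folate receptor, was at -1.98, -1.46 and -1.78 in WKY and at 1.40, 1.11 and 0.77 in SHRSP, a rise of 2.84 ± 0.16 or 7.14-fold. Endog, a mitochondrial nuclease, was at -0.06, -0.38 and -0.26 in WKY and at -2.04, -1.82 and -1.94 in SHRSP, a difference of -1.70 ± 0.13. Cd36, the fatty acid transporter, was at 5.02, 5.04 and 5.13 in WKY and at 3.76, 3.96 and 3.75 in SHRSP, a difference of -1.24 ± 0.15, with -1.37 ± 0.13 on its second probe. At 3 weeks the Cd36 difference was 0.07 (SHRSP) and -0.05 (SHR). Gstm1 was at -0.22 ± 0.12, Stim1 at -0.17 ± 0.10 and Ephx2 at -0.10 ± 0.30, none of them called, although leaving out replicate 2 of SHRSP gave a call for Gstm1 (-0.37) and slide as a block one for Stim1 (-0.20).

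Of 46 glutathione and antioxidant genes 9 were higher and 4 lower (28.3% called, near the 23.9% of all genes). Gstt3, a theta-class glutathione transferase, was at 1.07, 0.69 and 1.16 in WKY and at 3.01, 3.01 and 2.83 in SHRSP, a rise of 1.97 ± 0.11. Of 37 chaperone genes 8 were higher and 1 lower (24.3% called, near the share of all genes), with Hspb8, a small heat shock protein, up by 2.51 ± 0.26 while Hspa1b fell. Antigen presentation had 7 higher and 2 lower of 27 (33.3% called, against 23.9% of all genes). The class II genes RT1-Db1 (0.95), RT1-Bb (0.85) and RT1-Da (0.76) rose and the class I gene RT1-N1 was at -1.59 ± 0.14. Genes of this region differ in sequence between strains, and the part of probe mismatches in array differences between strains was not tested for these or other genes.

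Some lists lay at or below the background of 23.9%. Of 36 interferon-response genes 2 were higher and 1 lower, the last being Ifi44l at -2.36 ± 0.13. Of 54 respiratory chain genes 1 was higher and 1 lower (3.7% called), with a median of -0.01. Collagen and matrix genes had 6 higher and 4 lower of 42 (23.8%), with Lamb1, a laminin chain, up by 1.28 ± 0.18 and Mmp9, a gelatinase, at least 2.72-fold lower. Above it lay the lists of fatty acid genes, with 7 higher and 4 lower of 42 (26.2%), and of hormone receptors, with 4 and 4 of 18 (44.4%). On the fatty acid list Ephx1, the microsomal epoxide hydrolase, rose by 1.23 ± 0.17.

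**Figure D5:**
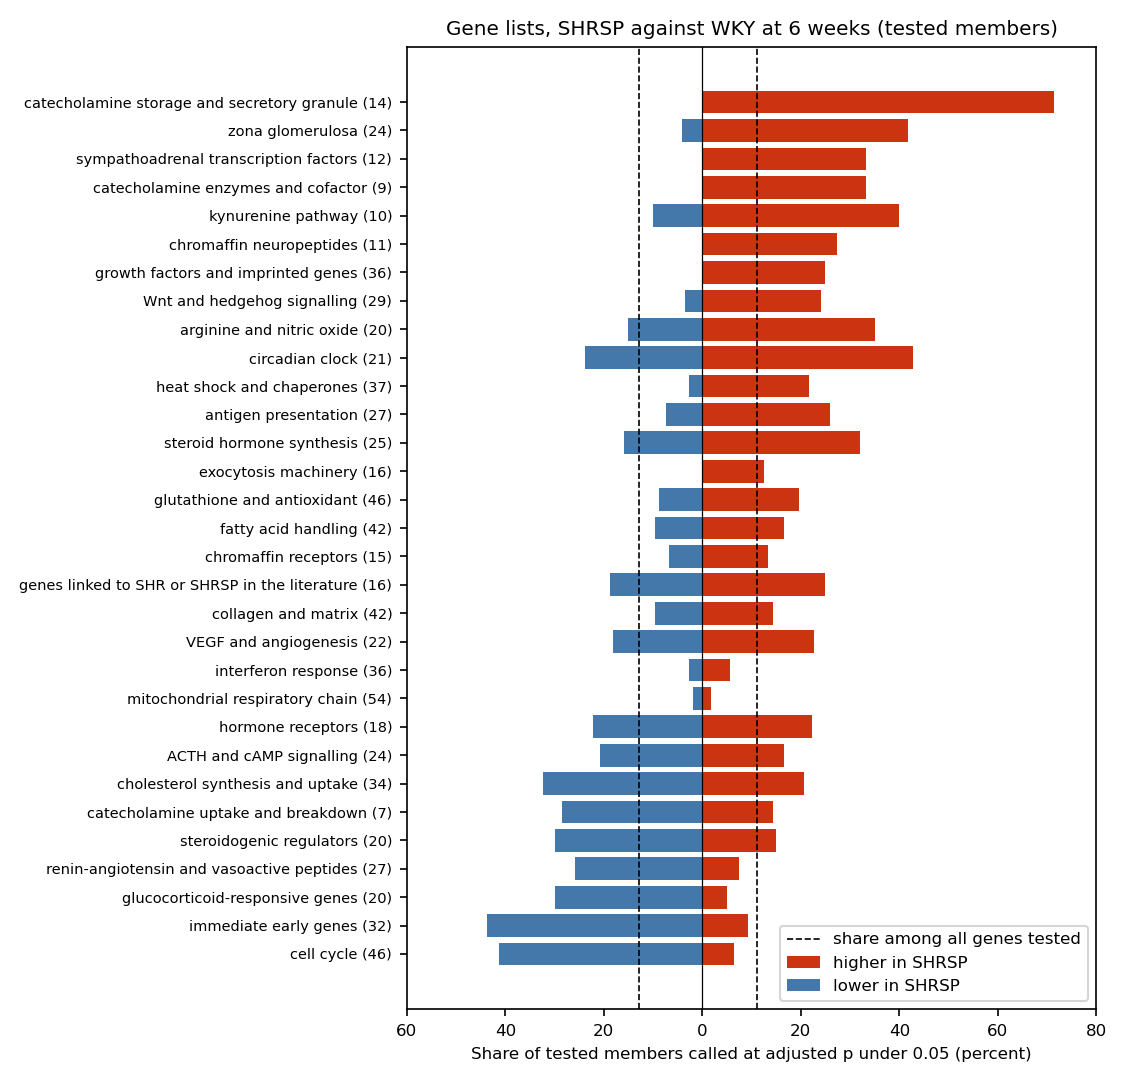
Share of the tested members of each of 31 gene lists called higher (red, to the right) or lower (blue, to the left) in SHRSP than in WKY at 6 weeks, in percent, with the number tested in brackets. Dashed lines give the shares among all genes tested, 11.1% higher and 12.8% lower. Granule genes reach furthest to the right, and immediate early and cell cycle genes furthest to the left.

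Shares called among markers of other cell types lay on both sides of the 23.9% of all genes. Of 14 macrophage markers 1 was higher (Lyz2 at 0.68 ± 0.15), of 10 fibroblast markers 0 were called, and of 9 T and NK cell markers 3 were lower (33.3%), with Cd3g at -1.72 ± 0.22. Of 13 endothelial markers 1 was higher and 3 lower (30.8%), and of 7 mast cell markers 2 were lower (28.6%). Red cell markers were lower in 3 of 7 (42.9%), with the haemoglobin gene Hbb at -0.36 ± 0.11. The Hbb call was lost in 7 of 16 alternatives, among them those without replicate 1 or 2 of WKY or replicate 1 or 3 of SHRSP. Of 16 fat markers 1 was lower, Ppargc1a at -1.52 ± 0.42, which was not called without replicate 1 (-1.44) or 2 (-1.26) of WKY or replicate 1 (-1.17) of SHRSP. The median of the fat markers was -1.21 on the first scan day and -0.15 and -0.14 on the others. Of 10 liver markers 1 was lower, Cyp2c11 at -2.64 ± 0.44, at levels of -4.39 to -2.86 in WKY. The part of these cells in the differences above was not tested.

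Against WKY at 3 weeks, 5465 genes were called under the SHRSP label (26.2%), 3081 higher (14.8%) and 2384 lower (11.4%), or 2380 and 2792 with quantile normalization. Under the SHR label 3801 were called (18.2%), 1882 higher (9.02%) and 1919 lower (9.2%). No array is shared between the ages, while the 3-week comparisons share the WKY arrays. Of the 4991 genes called at 6 weeks, 2372 were called in the same direction at 3 weeks under the SHRSP label, which is 47.5% of the 6-week calls and 43.4% of the 3-week ones, and 192 in the opposite direction. Under the SHR label 1650 had the same direction, 33.1% and 43.4%, and 253 the opposite one.

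The difference from WKY changed between the ages for 2099 genes under the SHRSP label (10.1%), 773 upward (3.7%) and 1326 downward (6.36%). With quantile normalization these were 952 and 930, and without replicate 2 of WKY at 3 weeks the total was 1306. Under the SHR label 2274 genes were called (10.9%), 1057 upward (5.07%) and 1217 downward (5.83%). Among genes called at 6 weeks, the most negative fitted changes under the SHRSP label were in Vegfb (-10.37), Sbk2 (-4.13), Noct (-4.12), Obscnl (-3.98) and Fabp6 (-3.97). Under the SHR label the same genes stood at -0.25, -4.65, -3.94, -3.82 and -2.77, and of these only the Vegfb change was not called. Vegfb, Sbk2 and Obscnl were below background on all SHRSP arrays at 6 weeks, so their fitted changes are no measured sizes and have no order. Noct, the clock-linked gene of nocturnin, was at -1.22 ± 0.30 at 6 weeks after differences of 2.90 and 2.72 at 3 weeks. Fabp6, an intestinal-type bile acid binding protein, was at 1.97, 1.12 and 1.54 in WKY and at -1.44, -1.49 and -1.70 in SHRSP at 6 weeks, a difference of -3.09 ± 0.22.

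The most positive fitted changes were in Uts2 (5.67), Spaca1 (3.31), Lilrb3l (2.90), Lilrc2 (2.78) and Slc2a5 (2.59), and under the SHR label these stood at 1.99, 1.98, 0.23, 0.61 and 2.30. Spaca1, Lilrb3l and Lilrc2 were well above background on no SHRSP array at 3 weeks, and the same limit holds for them. Uts2, the gene of the vasoconstrictor peptide urotensin II, was at -0.10, -0.62 and 1.14 in WKY and at 1.62, 1.92 and 1.91 in SHRSP at 6 weeks, a rise of 1.67 ± 0.41. Slc2a5, a fructose transporter, was at -4.06, -4.58 and -3.82 in WKY and at -1.91, -2.22 and -2.23 in SHRSP, a rise of 2.03 ± 0.20, and changed under both labels (adjusted p = 0.000113 and 0.000216). Lilrc2 was called at 6 weeks only narrowly (0.85 ± 0.29, adjusted p = 0.0456). Its call was lost in 10 of 16 alternatives, among them those without replicate 1, 2 or 3 of WKY or replicate 1 or 2 of SHRSP.

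Against the arrays labelled SHR at 6 weeks, 3117 genes were called (14.9%), 1405 higher (6.73%) and 1712 lower (8.2%) in SHRSP, or 1704 and 1063 with quantile normalization, which moved the median of all genes from -0.107 to -0.0054. This difference itself changed between the ages for 2483 genes (11.9%), 925 upward (4.43%) and 1558 downward (7.47%), with the labels as given. Called the same way against both WKY and SHR were 1248 genes (5.98%). Genes that set the SHRSP arrays apart from both others were led downward by Vegfb, Hspa1b, Dyrk3, Sbk2, Nr4a1 and Lrrc58, whose differences from SHR were -10.29, -5.41, -3.38, -3.11, -2.42 and -2.79. Lrrc58, a leucine-rich repeat gene, was at -1.88, -0.42 and -0.27 in WKY and at -2.96, -3.15 and -3.28 in SHRSP. Upward they were led by Lilrb3l (3.21), Cbs (2.51), Ass1 (2.19), Ccl11 (2.01), Pira2 (2.39) and Cited2 (1.71). Vegfb and Sbk2 in SHRSP, and Lilrb3l and Pira2 in SHR, were well above background on no array, so these fitted differences are no measured sizes. Ccl11, the eosinophil chemokine eotaxin, was at -2.36, -2.06 and -2.19 in WKY and at -0.00, 0.15 and -0.19 in SHRSP, a rise of 2.19 ± 0.16. Pira2, a paired immunoglobulin-like receptor gene, rose by 2.0 ± 0.19, but its second probe was at -0.45 ± 0.54 and the median of probes was 0.78 and not called.

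Calls were spread over the genome. The share called ran from 20.5% on chromosome X to 27.8% on chromosome 16. In windows of 2 Mb the most genes called at 2-fold or more were 9 of 23 on chromosome 14, with probes from 48533711 to 49821926 on rn4, all 9 higher by 1.22 to 1.89. This window was chosen after its values were seen, and whether its probes share signal was not tested. Where a called gene had further probes, 768 of 873 (88%) differed in the same direction as the brightest one, 452 of them called, and 18 were called in the opposite direction.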

How the data were processed

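Adrenal RNA of 18 samples was hybridised to one-colour Agilent arrays, 6 of which are compared here, after labelling with Cy3 from an oligo-dT primer, per the labels' protocols. The deposited values are processed signal intensity on a linear scale from Agilent Feature Extraction 10.5.1.1, per the file headers and the submitters' processing notes. The authors corrected them for spatial trends within an array, without local background subtraction or normalization between arrays, per the file headers, so the scaling chosen here sets what counts as higher or lower. The deposited series table held identical intensity values.

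Here log2 of the intensity minus the 75th percentile of each array was used, without control spots and spots marked as outliers, and spots of a probe were averaged. The probe with the highest mean over 18 arrays stood for a gene. Of 26612 names, 20868 had their probe above background throughout some group of 3 and were fitted as 6 group means in limma 3.58.1 (R 4.3.3; lmFit, eBayes; 12 residual degrees of freedom), and 186 lacked a value on an array. The model used whatever arrays were left, and 20866 genes had a value for the 6-week difference. Benjamini-Hochberg adjustment ran over all tested genes. Names were updated through RefSeq accessions for 17328 of 30367 probes. Probe positions are those of the files (rn4), and exons or UTRs under probes were not analysed here. A lower bound sets the bright group's mean against, per dim array, its own signal or the dimmest signal above background, whichever is higher.

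Members, 46 gene lists and alternatives were chosen with earlier results of these data known. Genes were named as the 15 largest rises and falls without overlap, the 5 highest and lowest changes with age among genes called at both contrasts, the 6 each way called against both WKY and SHR, per list the 5 called genes of smallest adjusted p, and 19 genes of the adrenal or these strains regardless of result. Some genes that this rule names are not reported here. Ccnd3, Cdkn3, Cdk6, Pgf, Vegfc, Cyp51, Dhcr7, Nr1d1, Nr1d2, Sf3b1 and the RT1 class II genes were named after their values were seen. Slide, scan day, replicate number, scaling, background, filter and probe choice were varied. The code was tested on simulated data. Python 3.11.15, pandas 2.3.3 and matplotlib 3.10.9 were used.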

Additional observations from a re-analysis of the deposited data

Results flagged for a closer look

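For the genes below the difference between SHRSP and WKY itself differed between 6 and 3 weeks in limma's interaction contrast at an adjusted p under 0.05, with the labels as deposited. The change was positive for Serpinc1 (8.99), Uts2 (5.67), Agtrap (5.54), Spaca1 (3.31), Lilrb3l (2.90), Lilrc2 (2.78), Ephx2 (2.73), Slc2a5 (2.59), Pira2 (2.36), Ccl11 (1.76), Agtr1b (0.93), Hsd3b2 (0.84) and Ddc (0.50). It was negative for Vegfb (-10.37), Sbk2 (-4.13), Noct (-4.12), Obscnl (-3.98), Fabp6 (-3.97), Hspa1b (-3.67), Cd36 (-1.31) and Star (-0.41). With the arrays labelled SHR at 3 weeks in place of SHRSP, a choice made after the data were seen, Serpinc1 stood at 0.52, Agtrap at 0.68, Ephx2 at -0.62, Ccl11 at 0.41, Pira2 at 0.60, Ddc at 0.25 and Star at 0.00, none of them called, while Hspa1b (-5.83), Cd36 (-1.19), Hsd3b2 (1.59) and Agtr1b (1.0) stayed past the threshold. Vegfb, Sbk2 and Obscnl at 6 weeks, and Spaca1, Lilrb3l and Lilrc2 at 3 weeks, were well above background on no SHRSP array, so their fitted changes are no measured sizes. Groups of 3 are too small for a test of single outlying arrays.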

How the results depend on the processing

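The 6-week count of 4991 moved to 2374 with the 6 arrays alone and ran from 3764 to 4683 without one replicate. The 3-week count of 5465 ran from 3763 to 5171 and was 3801 with the arrays labelled SHR (added after the data were seen). The change with age, 2099, ran from 1306 to 2115 and was 3187 with scan day as a block. SHRSP against SHR, 3117, was 1218 with its own arrays and ran from 2171 to 2953. Called list members numbered 143 with the 6 arrays alone and 196 to 242 without one replicate. Of 134 called genes named here, Sf3b1 not among them, 111 kept their call and direction in every alternative that could be run for them. None turned. With the 6 arrays alone 18 of these calls were lost, the most in any alternative. Of 16 alternatives, Lilrc2 lost its call in 10, Hbb in 7 and Chrna7 in 6. Agtr1a, Chga and Sv2a lost theirs in 5, Ppargc1a, Pts and Slc22a3 in 4, and Nr4a3 in 3. Adra2a and Rspo1 did so in 2. Acox2, Akr1c3, Arg2, Dyrk3, Glul, Hhip, Lyz2, Nr4a2, Pira2, Slc18a1 and Uts2 did so in 1. Genes that were not called changed sign for Serpinc1 with slide as a block (-0.58), Ephx2 with slide as a block (0.14) and without one replicate (-0.26 to 0.08), and Cyp11a1 and Cyp21a1 with quantile normalization (0.01 and 0.00). Normexp shrank differences of dim genes (Acox2 to 0.50, Nppc to -0.58). With the replicate block 5210 genes were called at 6 weeks; same-numbered samples did not pair, with correlations of 0.24, -0.17 and -0.53. The deviations of WKY and SHRSP samples scanned on the same day correlated at 0.24, 0.62 (also the same slide) and 0.16. All of these were above 0, while those of samples scanned on different days had both signs, from -0.556 to 0.462. The ranges overlap, and the part of scan day in the levels was not tested. With scan day as a block, which the reported calls do not use, the count was 6553 and with slide 6128. Only slide 5 held both groups, 1 array each. Array number and signals near background limit precision. The cause of these shifts was not tested.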
